A study of Mus musculus with 6 samples.

Results

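Protein arginine methyltransferases (PRMTs) transfer methyl groups from S-adenosylmethionine to arginine side chains of histones, RNA-binding proteins and many other substrates. Type I enzymes leave asymmetric dimethylarginine, type II enzymes symmetric dimethylarginine, and the type III enzyme PRMT7 monomethylarginine only. PRMT5 is the main type II enzyme and the target of the inhibitor GSK3326595. The genes described here are the remaining family members, namely the type I enzymes Prmt1, Prmt2, Prmt3, Carm1 (also called PRMT4), Prmt6 and Prmt8, the type II enzyme Prmt9 and the type III enzyme Prmt7, together with Jmjd6. JMJD6 is a JmjC-domain oxygenase that hydroxylates lysines of splicing proteins and has also been reported, with dispute, as an arginine demethylase.

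These 9 genes were chosen by name out of 47643 in the count table. The symbols of 8 were found directly, and Prmt9 was found by its Ensembl identifier, ENSMUSG00000037134.16, under the older symbol Prmt10. RNA was taken from the liver tumors of LAP-tTA-tetO-MYC mice on the FVB/N strain. In these mice a liver-specific promoter drives the transactivator that turns on MYC, a design that directs the transgene to hepatocytes. Which cells of the tumors expressed the transgene was not measured. All mice drank doxycycline at 100 mg/L up to 4 weeks of age, had MYC switched on by its withdrawal for 8 weeks, and were then dosed for 2 weeks, 3 libraries with vehicle and 3 with GSK3326595 at 50 mg/kg/day. Nothing in the labels ties each library to its own mouse, so the p-values measure only how far these libraries spread, which may be technical.

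Libraries held from 25814339 to 33621083 expected counts. GSK3326595 replicate 2 stood apart on the first principal component, at 103.1 against -50.2 to 9.37 for the other 5 libraries. None of the hepatocyte markers was at 0, and the summed level of the 6 markers (Alb, Apoa1, Ttr, Hnf4a, Tat and Cps1) was 10344 to 25912 CPM (expected counts relative to the library's total, with TMM scaling between libraries) in vehicle and 5772 to 19871 CPM in GSK3326595, lowest in replicate 3 of each group. The summed level of 5 T cell markers was 0.860 to 1.09 CPM in vehicle and 4.69 to 8.71 CPM in GSK3326595. The summed level of 5 macrophage markers was 241 to 893 CPM, and it was highest in GSK3326595 replicate 1. The summed level of 4 stellate cell and fibroblast markers was 82.2 to 368 CPM in vehicle and 381 to 550 CPM in GSK3326595, without overlap. Of these 4, Col3a1 had the highest level in every library, with means of 121 CPM in vehicle and 331 CPM in GSK3326595. Only Col3a1 did not overlap between the groups, while Dcn, Col1a1 and Lrat each overlapped. Endothelial markers summed to 76.0 to 130 CPM in vehicle and 95 to 190 CPM in GSK3326595, and B cell markers to 0.782 to 1.31 and 0.722 to 2.39 CPM. The part of these shifts in the values below was not tested. In bulk tumor RNA, fewer cells of a type and less RNA per cell cannot be told apart.

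MYC with its partner MAX binds the E-box letters CACGTG, and this palindrome was looked for in the 250 bases before the RefSeq start of each gene (GRCm38.p6, the build of the files). The promoter table held Prmt5 and 8 of the 9 members, all but Carm1. The letters occurred in 2 of these 9 windows, those of Prmt1 and Prmt3, and in 6.05% of 27025 promoter windows of the same length. They are shown because they are the only E-boxes of this form in the 9 windows searched, 5′ to 3′ on the gene's strand, with CACGTG in capitals, for Prmt1 at chr7:44986584-44986613 (minus strand, E-box from base -181) and for Prmt3 at chr7:49778333-49778362 (plus strand, E-box from base -13). All but the first base of the Prmt3 E-box lies within an annotated Prmt3 exon, and the Prmt3 stretch shown runs past the RefSeq start.
Prmt1: acccaatcgtcaCACGTGctgggtgagaca
Prmt3: gccccctacgccCACGTGacccggaagcgc
GC boxes (GGGCGG on either strand) were found in the windows of 5 of the 9 genes, against 32.9% of all windows. The ETS letters CCGGAAG, also searched on either strand, occurred in 2 of the 9 windows, those of Prmt2 and Jmjd6, against 7.05% of all windows. All 250 bases of the Prmt6, Prmt7, Prmt8 and Jmjd6 windows lie within annotated exons, those of Jmjd6 in exons of Mettl23. The GC boxes of Prmt7 and Prmt8 and the ETS letters of Jmjd6 are therefore exonic. A stretch of the Prmt1 window outside annotated exons, chr7:44986569-44986670, holds the E-box and 2 of its 4 GC boxes, all in capitals, and is shown because Prmt1 had more GC boxes than any other window of the family.
Prmt1 upstream: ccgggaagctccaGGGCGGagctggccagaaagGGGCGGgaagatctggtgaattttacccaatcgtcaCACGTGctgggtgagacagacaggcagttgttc
A match is a description of the letters only, and the libraries hold no measurement of binding.

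The comparison of GSK3326595 with vehicle asks whether the other arginine methyltransferases change in transcript level when PRMT5 is inhibited in MYC-driven tumors. No member passed the threshold (edgeR adjusted p from 0.700 to 0.964 over 17012 genes, 8 members tested), where 0% of all genes were called higher and 0% lower. At an unadjusted p under 0.05, 0 of the 8 members passed, against 9.26% of all genes tested (5.45% higher and 3.81% lower). The groups overlapped in all 8, whereas they did not overlap in 14.4% of all genes (6.72% higher and 7.66% lower in GSK3326595). Of the 8 members 6 had a log2 difference above 0 and 2 below, with a median of 0.11, against 53.1% above 0 and a median of 0.03 over all genes. Without GSK3326595 replicate 3, 2 of the 8 were above 0 and the median was -0.04. DESeq2 called 0 members (smallest adjusted p 0.717) and 1.69% of all genes, and limma-voom called 0 members (smallest adjusted p 0.765) and 0% of all genes. Exon bases of Prmt3, Carm1, Prmt6, Prmt7 and Jmjd6 are shared with genes on the opposite strand, and how far reads of those genes enter their counts was not tested.

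Among the type I enzymes, Prmt1 carries most of the asymmetric dimethylation in mammalian cells. Prmt1 (ENSMUSG00000109324.1; chromosome 7, 44975989 to 44986568, minus strand) had 61.7, 51.4 and 74.8 CPM in vehicle and 49.1, 58.6 and 105 CPM in GSK3326595. GSK3326595 replicate 3 lay above every other library and GSK3326595 replicate 1 below, with the vehicle libraries between them. The log2 difference was 0.18 ± 0.32 (SE; edgeR adjusted p = 0.916), and its 95% interval ran from 0.670-fold to 1.92-fold. Without GSK3326595 replicate 3 the difference turned to -0.20.

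Carm1 (chromosome 9, 21546894 to 21592623, plus strand) encodes a coactivator of nuclear receptors that methylates histone H3 and splicing and mediator proteins. It had 43.6, 42.6 and 45.8 CPM in vehicle and 38.9, 58.9 and 65.6 CPM in GSK3326595. Its vehicle libraries lay close together, while 2 GSK3326595 libraries were above all of them and 1 below. The log2 difference was 0.31 ± 0.22 (SE; edgeR adjusted p = 0.710; 95% interval 0.860-fold to 1.78-fold). Without GSK3326595 replicate 1 it was 0.50 (edgeR unadjusted p = 0.0171, adjusted p = 0.456), and without GSK3326595 replicate 3 it was 0.17. In the edgeR fit without GSK3326595 replicate 1, 886 of 17500 genes were higher and 961 lower at an unadjusted p under 0.05.

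Prmt2 (chromosome 10, 76207222 to 76237865, minus strand), a coregulator of transcription with weak methyltransferase activity, had the lowest level of the members with counts and the smallest p of them. It had 3.09, 3.03 and 3.79 CPM in vehicle and 6.80, 2.17 and 6.67 CPM in GSK3326595. GSK3326595 replicates 1 and 3 were above all vehicle libraries and replicate 2 below all of them, so the groups overlapped. The log2 difference was 0.66 ± 0.46 (SE; edgeR adjusted p = 0.700; 95% interval 0.742-fold to 3.36-fold). Without GSK3326595 replicate 2 it was 1.08 (edgeR unadjusted p = 0.00627, adjusted p = 0.459), and without GSK3326595 replicate 1 it was 0.42. In the edgeR fit without GSK3326595 replicate 2, 972 of 17401 genes were higher and 776 lower at an unadjusted p under 0.05.

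Prmt3 (chromosome 7, 49778346 to 49858265, plus strand), a cytosolic enzyme that methylates the ribosomal protein RPS2, had 36.5, 35 and 39.7 CPM in vehicle and 25.8, 44.9 and 45.9 CPM in GSK3326595. Its GSK3326595 libraries lay on both sides of the narrow vehicle range (log2 difference 0.07 ± 0.25, edgeR adjusted p = 0.964; 95% interval 0.694-fold to 1.59-fold), and without GSK3326595 replicate 1 the difference was 0.29. Prmt6 (chromosome 3, 110246109 to 110250998, minus strand), a nuclear enzyme that methylates histone H3, had 12.4, 10.2 and 8.77 CPM in vehicle and 7.99, 12.3 and 13.9 CPM in GSK3326595. The vehicle libraries lay within the range of the GSK3326595 libraries (log2 difference 0.12 ± 0.29, edgeR adjusted p = 0.943; 95% interval 0.678-fold to 1.75-fold), and the difference was 0.32 without GSK3326595 replicate 1 and -0.03 without GSK3326595 replicate 3. Prmt8 (chromosome 6, 127689011 to 127769472, minus strand), a membrane-bound relative of PRMT1 known from the brain, had 0 counts in all 6 libraries. A count of 0 allows up to 0.0162 CPM over the 6 libraries together, for counting error only. Of 4 neuronal markers, Snap25 was likewise at 0 in all libraries, and the summed level of the 4 was 0.325 to 1.77 CPM.

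Prmt7 (chromosome 8, 106210936 to 106252794, plus strand), the monomethylating enzyme, had 62.9, 53.0 and 79.5 CPM in vehicle and 52.7, 67.1 and 88.1 CPM in GSK3326595. Its lowest and its highest library were both GSK3326595 libraries, replicates 1 and 3 (log2 difference 0.09 ± 0.25, edgeR adjusted p = 0.953; 95% interval 0.705-fold to 1.61-fold). The difference turned to -0.04 without vehicle replicate 2 and to -0.10 without GSK3326595 replicate 3.

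Prmt9 (chromosome 8, 77549397 to 77581338, plus strand), the other symmetric enzyme, methylates the splicing factor SF3B2 and is not the target of GSK3326595. It had 28.2, 26.7 and 22.7 CPM in vehicle and 22.8, 27.1 and 23.6 CPM in GSK3326595. It had the narrowest range of the 8 members, with its highest library at 1.24 times its lowest, against 1.67 to 3.13 times for the others. The log2 difference was -0.08 ± 0.18 (SE; edgeR adjusted p = 0.942; 95% interval 0.704-fold to 1.28-fold), and it was 0.016 with no scaling beyond total counts. Prmt5 itself, for comparison, had 69.9, 48.9 and 84.9 CPM in vehicle and 51.3, 96.0 and 130 CPM in GSK3326595 (log2 difference 0.44 ± 0.37, edgeR adjusted p = 0.753). The Prmt5 difference was 0.14 without GSK3326595 replicate 3 and 0.25 without vehicle replicate 2, and it was 0.69 without vehicle replicate 3 and 0.73 without GSK3326595 replicate 1 (edgeR unadjusted p = 0.0439, adjusted p = 0.468).

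Jmjd6 (chromosome 11, 116837432 to 116843449, minus strand) had 81.9, 71.1 and 77.1 CPM in vehicle and 53.8, 63.3 and 97.0 CPM in GSK3326595. GSK3326595 replicates 1 and 2 lay below all vehicle libraries and replicate 3 above all of them. The log2 difference was -0.10 ± 0.24 (SE; edgeR adjusted p = 0.943; 95% interval 0.622-fold to 1.39-fold). Without GSK3326595 replicate 3 it was -0.37 (edgeR unadjusted p = 0.0624, adjusted p = 0.409), and it turned to 0.06 without GSK3326595 replicate 1 and to 0.03 without GSK3326595 replicate 2.

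**Figure D1:**
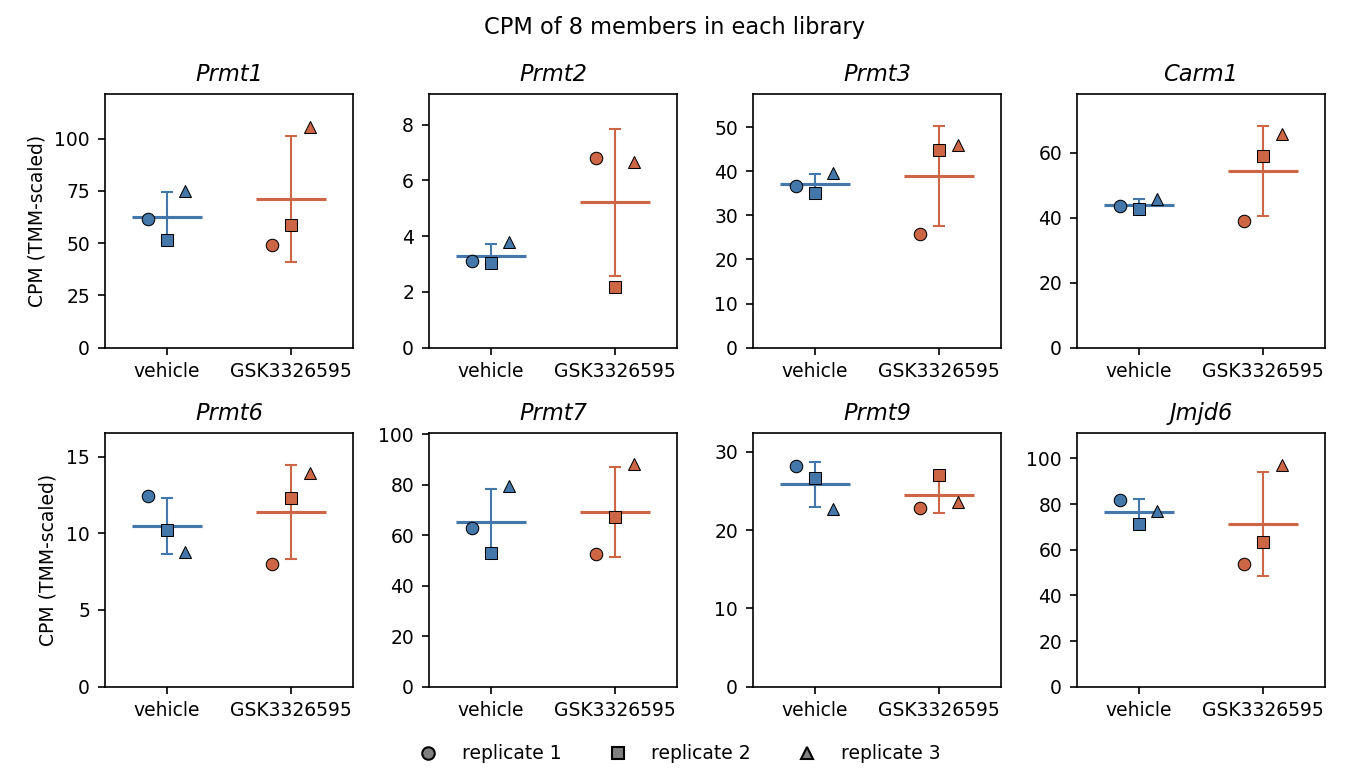
TMM-scaled CPM (y axis, from 0) of the 8 members with counts, in vehicle (blue) and GSK3326595 (orange); each point is a library, its shape the replicate number, the horizontal line the group mean and the bar 1 SD (n = 3). The 2 groups overlap in every panel, and replicates 1 and 3 of GSK3326595 mark the extremes of most.

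**Figure D2:**
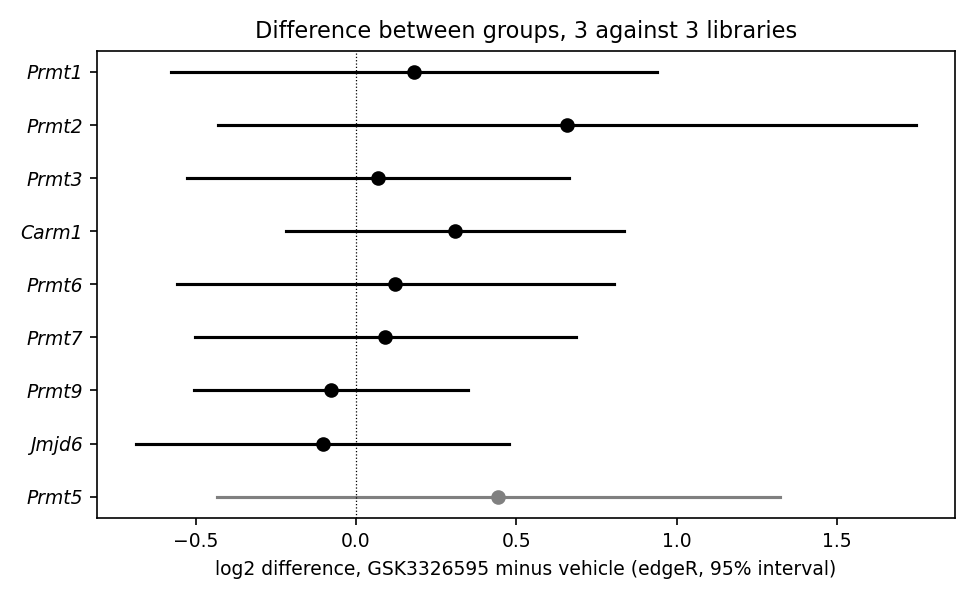
Log2 difference, GSK3326595 minus vehicle (x axis), with its 95% interval from edgeR, for the 8 members (black) and Prmt5 (grey). Every interval includes 0, and that of Prmt2 is the widest.

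The members varied more between the treated libraries than between the vehicle libraries, as most genes did. The coefficient of variation was larger in GSK3326595 for 7 of 8 members, with a median of 28% against 11.9% in vehicle. Over all genes tested it was larger in GSK3326595 for 75.1%, with medians of 30.2% and 17.9%. The extremes fell in the same libraries for 6 members: Prmt1, Prmt3, Carm1, Prmt6, Prmt7 and Jmjd6 were each lowest in GSK3326595 replicate 1 and highest in GSK3326595 replicate 3. Prmt2 was instead highest in GSK3326595 replicate 1 and lowest in GSK3326595 replicate 2, and Prmt9 was highest in vehicle replicate 1 and lowest in vehicle replicate 3. GSK3326595 replicate 3 had the lowest summed hepatocyte marker level of the 6 libraries, and all of these markers but Tat were lowest there. GSK3326595 replicate 1 had the highest summed macrophage marker level, 893 CPM, of which Cd5l made up 611 CPM. All macrophage markers but Clec4f were highest there, and Clec4f was lowest there, at 0.129 CPM. The part of these marker levels in the extremes of the members was not tested.

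**Figure D3:**
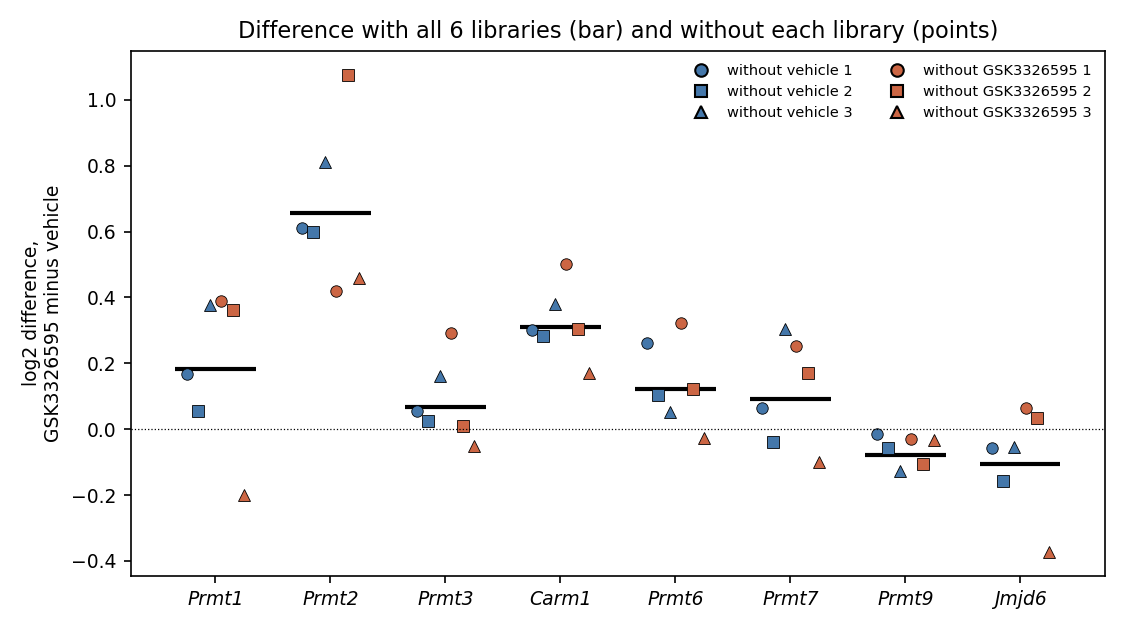
Log2 difference, GSK3326595 minus vehicle (y axis), for each member with all 6 libraries (black bar) and without each library in turn (points; blue without a vehicle library, orange without a GSK3326595 library, shape the replicate number). Prmt1, Prmt3, Prmt6 and Prmt7 fall below 0 without GSK3326595 replicate 3, whereas Prmt2 and Carm1 stay above 0 throughout.

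Levels were compared between genes as CPM per kilobase of exon, using the union of annotated exons. Over the 6 libraries Prmt5 averaged 20.2 CPM per kilobase, Prmt1 19.5, Jmjd6 15.8, Prmt7 11 and Carm1 10.1, followed by Prmt3 with 6.33, Prmt9 with 4.43, Prmt6 with 2.61 and Prmt2 with 1.26. Prmt1 was above Prmt5 in 4 of 6 libraries, and Prmt7 above Carm1 in 4 of 6, so neither pair of neighbours was ordered beyond its spread. Prmt1 was above Prmt5 in every vehicle library and in GSK3326595 replicate 1. The means of Prmt1 and Prmt5 were 18.3 and 17.2 CPM per kilobase in vehicle, and 20.7 and 23.3 in GSK3326595. The ranges over libraries did not overlap between Carm1 and Prmt3 or between Prmt9 and Prmt6. With mean or longest transcript lengths in place of exon unions, Prmt1 ranked above Prmt5 and Prmt7 above Jmjd6, and with mean transcript lengths Prmt3 ranked above Carm1.

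The share of each enzyme in the summed level per length of the PRMT family, Prmt5 included, does not depend on how libraries are scaled. Prmt1 held 26.3% ± 1.03 in vehicle and 25.1% ± 3.53 in GSK3326595 (SD, n = 3 each), Prmt7 15.3% ± 0.921 and 14.1% ± 1.11, and Carm1 13.2% ± 1.58 and 14.0% ± 1.37. Type I enzymes together held 53.6% ± 2.31 and 52.5% ± 2.13 (SD, n = 3 each). Of 7 member shares none separated the groups (exact permutation p from 0.3 to 0.7, two-sided, where 0.1 is the smallest that n = 3 against 3 allows).

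The ratio of Jmjd6 to that sum, tested with these shares as an eighth value, did not overlap between the groups. Per length, Jmjd6 stood at 25%, 25.8% and 20.6% of the PRMT sum in the vehicle libraries and at 20.4%, 16.8% and 19.0% in the GSK3326595 libraries. The means were 23.8% ± 2.77 and 18.7% ± 1.82 (SD, n = 3 each), a difference of -5.08 percentage points (exact permutation p = 0.1, two-sided; 0.7 adjusted over the 8 values), which does not pass. The gap between the nearest libraries, vehicle replicate 3 and GSK3326595 replicate 1, was narrow, and with mean transcript lengths the groups overlapped, with 14.5% and 14.8% in these 2 libraries. With Prmt5 left out of the sum, the groups did not overlap, at 28.3% to 33.4% in vehicle and 24.0% to 27.3% in GSK3326595. That setting was chosen after seeing the data and uses the same Jmjd6 values, so it is not separate evidence.

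**Figure D4:**
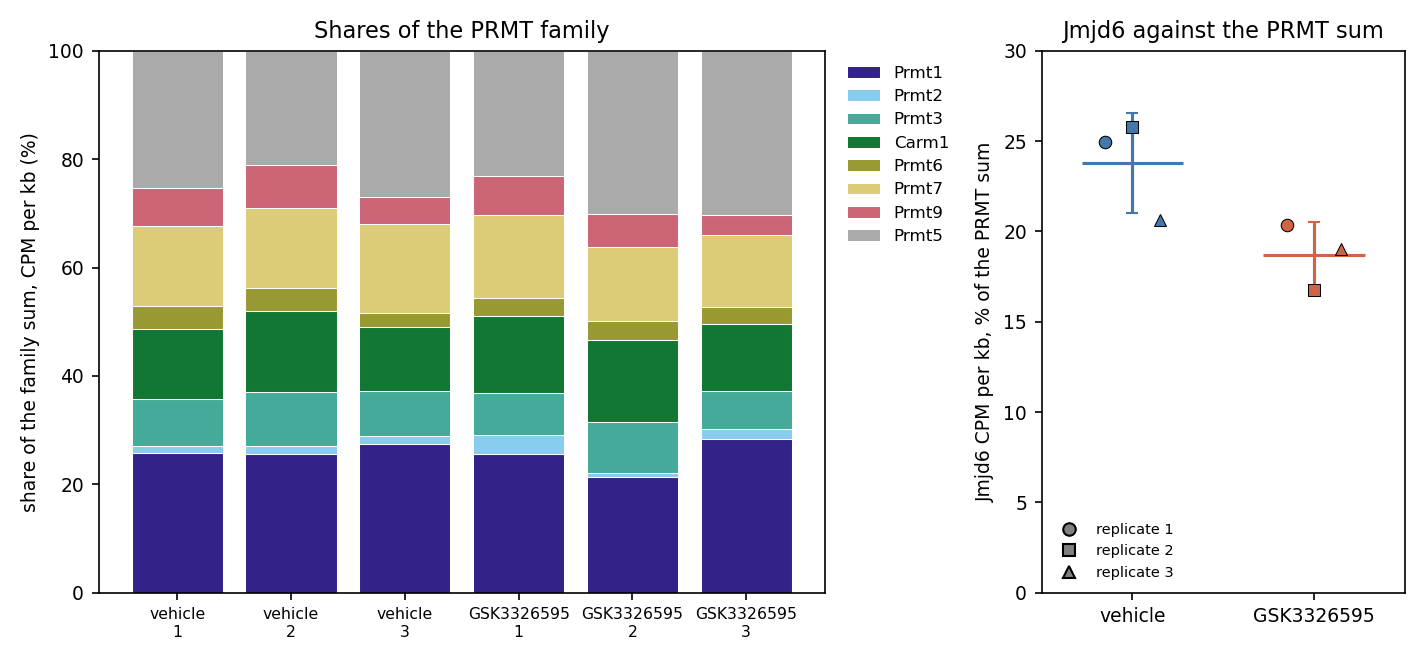
Left, share of each enzyme in the summed CPM per kilobase of the PRMT family (y axis, percent) in each library; Prmt8 is at 0. Right, Jmjd6 CPM per kilobase as a percent of that sum (y axis, from 0), with points for libraries, lines for means and bars for 1 SD (n = 3). Prmt1 and Prmt5 hold the largest shares in every library, and the GSK3326595 libraries (16.8% to 20.4%) lie below the vehicle libraries (20.6% to 25.8%) on the right.

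Genes around the family were read from 9 lists of 64 tested genes. By edgeR 0 of the 64 passed over all genes (smallest adjusted p 0.499), and DESeq2 called 0; 0 were higher and 3 lower at an unadjusted p under 0.05, which is 4.69% against 9.26% of all genes. The groups did not overlap in 6 of the 64, or 9.38%, against 14.4% of all genes. The median log2 difference over the 64 was 0.02, against 0.03 over all genes. The median turned sign without some single library in 8 of the 9 lists, all but the partners of type I enzymes.

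Of the 3 genes for the breakdown of free methylarginine, 1 was above 0 and 2 below (median -0.22, and 0.04 without GSK3326595 replicate 2 or 0.01 without vehicle replicate 3). Ddah1, which degrades asymmetric dimethylarginine released from proteins, had 282, 261 and 176 CPM in vehicle and 128, 161 and 139 CPM in GSK3326595. All its treated libraries were below all vehicle libraries (log2 difference -0.74 ± 0.23, edgeR unadjusted p = 0.0142, adjusted p = 0.499), and the unadjusted p was 0.05 or above in 1 of 6 edgeR fits that each left out 1 library, the one without vehicle replicate 1. Of 7 partners of type I enzymes, 1 was above 0 and 6 below (median -0.15). Btg2, an early response gene whose product binds PRMT1, had 84.6, 154 and 33.3 CPM in vehicle and 44.7, 14.1 and 22.4 CPM in GSK3326595 (log2 difference -1.74 ± 0.64, edgeR unadjusted p = 0.0299, adjusted p = 0.522). The groups for Btg2 overlapped through vehicle replicate 3 and GSK3326595 replicate 1. Its difference was -1.12 without vehicle replicate 2, and its unadjusted edgeR p was 0.05 or above in 4 of the 6 fits without 1 library, those without vehicle replicate 1 or 2 or GSK3326595 replicate 2 or 3. Of the other partners, the coactivators Ncoa2 and Ep300 had smaller log2 differences, with Ncoa2 at -0.15 ± 0.16 and Ep300 at -0.21 ± 0.20 (SE).

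Among 23 RNA-binding substrates, 17 were above 0 and 6 below (median 0.09, and -0.10 without GSK3326595 replicate 3). Rps2, the ribosomal substrate of PRMT3, had 254, 245 and 259 CPM in vehicle and 147, 206 and 224 CPM in GSK3326595, without overlap (log2 difference -0.39 ± 0.20, edgeR adjusted p = 0.595). Snrpd3, an Sm protein methylated by PRMT5, stood at 0.49 ± 0.39 (SE; edgeR adjusted p = 0.741), and at 0.03 without GSK3326595 replicate 3. Of 3 chromatin substrates and partners of CARM1, 1 was above 0 and 2 below (median -0.07, and 0.07 without vehicle replicate 2). Med12, a mediator subunit, had 87.0, 101 and 80.3 CPM in vehicle and 80.2, 57.2 and 62.4 CPM in GSK3326595 (-0.43 ± 0.19, edgeR adjusted p = 0.552). Of 4 Tudor proteins that read methylarginine, 3 were above 0 (median 0.18, and -0.0024 without GSK3326595 replicate 3), with Tdrd3, a reader of asymmetric dimethylarginine, at 0.30 ± 0.18 (SE; edgeR adjusted p = 0.651).

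Supply of the methyl donor showed no gene past the threshold: of 6 genes 2 were above 0 and 4 below (median -0.17, and 0.15 without GSK3326595 replicate 1). Mat1a, the hepatocyte S-adenosylmethionine synthetase, had 505, 581 and 437 CPM in vehicle and 758, 1655 and 323 CPM in GSK3326595, with both the highest and the lowest library in the treated group (log2 difference 0.84 ± 0.54, edgeR adjusted p = 0.677; 0.13 without GSK3326595 replicate 2 and 1.26 without GSK3326595 replicate 3). Mtap, which clears methylthioadenosine, an inhibitor of PRMT5, stood at 0.52 ± 0.38 (SE; edgeR adjusted p = 0.721). All 5 genes of the PRMT5 complex were above 0 (median 0.18, and -0.045 without GSK3326595 replicate 3), and 0 of them passed.

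Of 9 JmjC oxygenases of the JMJD6 kind, 5 were above 0 and 4 below (median 0.0050, and -0.08 without GSK3326595 replicate 3 or -0.03 without vehicle replicate 2). Jmjd7, a small lysyl hydroxylase, had 7.77, 5.99 and 7.07 CPM in vehicle and 4.03, 3.94 and 5.52 CPM in GSK3326595, without overlap (log2 difference -0.63 ± 0.26, edgeR unadjusted p = 0.0484, adjusted p = 0.535). For Jmjd7 the unadjusted edgeR p was 0.05 or above in 5 of the 6 fits without 1 library, all but that without GSK3326595 replicate 3. Of 4 partners of JMJD6, 2 were above 0 and 2 below (median -0.04, and 0.16 without GSK3326595 replicate 2), with U2af2, a splicing factor hydroxylated by JMJD6, at 0.19 ± 0.23 (SE).

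Genes among the 3 most like Prmt1 over the 6 libraries, by Pearson correlation of log2 CPM among 9268 genes with a mean of at least 10 CPM, were Otud4 (r = 0.996) and Rcc1 (0.996), and 790 genes reached 0.9. For Prmt2, the member of smallest p, the 3 were Stk3 (0.996), Actr3 (0.993) and Krt20 (0.992), and 119 genes reached 0.9. These correlations describe 6 points that share libraries.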

How the data were processed

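Total RNA of liver tumors was made into stranded libraries, per the labels' protocols. The authors deposited expected counts per gene, estimated reads not scaled to library size; 12.3% of values were not whole. Cutadapt, STAR, Picard and RSEM and the build mm10 are named, per the submitters' processing notes; versions and annotation release are not given in the sources used here. Coordinates and exon lengths (1-based) are from GENCODE M21 of the same build, matched by gene identifier for 47224 genes and not for 419, so member lengths are those of that release.

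Expected counts were rounded. The edgeR filter filterByExpr (minimum count 10) left 17012 genes; after TMM scaling they entered the quasi-likelihood test of edgeR 4.0.16 (R 4.3.3), GSK3326595 (n = 3) against vehicle (n = 3), two-sided, with Benjamini-Hochberg adjustment over all genes and a threshold of 0.05. Each SE was derived from the size of the log2 difference and its F statistic, and the 95% intervals from that SE. DESeq2 1.42.0 and limma 3.58.1 (voom) were alternatives, beside other scaling, filters, unrounded counts, a replicate block, and leaving out genes or libraries. Log2 CPM used a prior count of 2. In counts simulated for this comparison (17010 genes), edgeR called 1.49% of the 2-fold changes made, 41.8% at 4-fold and 97.0% at 16-fold, with 4 false calls; DESeq2 called 19.4%, 85.1% and 98.5%, with 76 false calls. Shares used exact permutation tests.

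All members and Prmt5 were named by rule, with up to 3 genes of smallest p per list and the 3 genes most like Prmt1 and the member of smallest p; some genes that this rule names are not reported here. Members and lists were chosen with earlier results of these data known. Replicate numbers appear in the titles, and deviations of same-numbered libraries correlated at -0.07, 0.07 and 0.32. The libraries were not taken as pairs, though these correlations cannot exclude pairing, and a replicate block was fitted as an alternative. Promoter sequences are from RefSeq (GRCm38.p6).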

Additional observations from a re-analysis of the deposited data

How the results depend on the processing

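Calls of 0 members, and of 0 genes by edgeR, held under every scaling, filter and limma-voom, with unrounded counts and without each library, while DESeq2 called 186 genes higher and 100 lower, none a member; the cause was not tested. Over the alternatives the members' adjusted p lay between 0.409 and 1. All genes at an unadjusted edgeR p under 0.05 (927 higher, 648 lower) spanned 347 to 1629 higher and 241 to 961 lower when single libraries were left out (lowest without vehicle replicates 1 and 2, 1629 higher without GSK3326595 replicate 3), with 1547 higher with no filter on low counts, where more genes were tested, and 430 lower with total counts only. Members at that p ranged from 0 to 1 (Carm1 without GSK3326595 replicate 1, Prmt2 without GSK3326595 replicate 2). With the replicate block, 638 genes were higher and 779 lower at that p, and 0 genes and 0 members were called; it changed no call. Without single libraries the log2 difference ranged from -0.20 to 0.39 for Prmt1, -0.051 to 0.29 for Prmt3, -0.028 to 0.32 for Prmt6, -0.10 to 0.30 for Prmt7, -0.37 to 0.063 for Jmjd6, -0.045 to 0.39 for Clns1a, -0.013 to 0.62 for Smn1, -0.52 to 0.041 for Ddah2, -0.16 to 0.066 for Kmt2d, -0.37 to 0.021 for Kdm8 and -0.35 to 0.10 for Luc7l2. List medians ranged, when single libraries were left out, from -0.045 to 0.39 for the PRMT5 complex, -0.35 to 0.15 for methyl donor supply, -0.0024 to 0.24 for Tudor readers, -0.52 to 0.041 for methylarginine breakdown, -0.10 to 0.26 for RNA-binding substrates, -0.16 to 0.066 for CARM1 chromatin substrates, -0.082 to 0.16 for JmjC oxygenases and -0.086 to 0.16 for JMJD6 partners. The JmjC median was -0.030 by limma-voom and with the replicate block, and that of JMJD6 partners 0.057 with total counts only and 0.0076 with at least 1 CPM in 3 libraries. Of 9 other settings, the unadjusted p of Jmjd7 was 0.05 or above in 5 and that of Btg2 in 1, the replicate block. With total counts only, the CARM1 chromatin median turned to 0.025, Prmt9 turned to 0.016, Snd1 to 0.0084, Kmt2d to 0.025 and Luc7l2 to 0.0018. Without single libraries the difference in share ranged from -2.86 to 0.65 percentage points for Prmt1 and from -0.11 to 1.28 for Prmt2. By level per length, with mean transcript length Prmt1 ranked 1, Prmt5 2, Prmt7 3, Jmjd6 4, Prmt3 5 and Carm1 6; with the longest transcript Prmt1 ranked 1, Prmt5 2, Prmt7 3 and Jmjd6 4. Leaving Prmt5 out of the sum was chosen after seeing the data. With 3 libraries a group, edgeR missed most simulated 2-fold changes after adjustment over all genes, a rate for genes at large and not for these members. The members' own 95% intervals, not adjusted for the number of genes, reached 2-fold in either direction only for Prmt2. Prmt2, at 70 to 211 counts, was the least precise member, with an interval of 0.742-fold to 3.36-fold.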

Other observations

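Values that were not whole marked the members that overlap other genes. Prmt3, Carm1, Prmt6, Prmt7 and Jmjd6 share exon bases with a counted gene on the opposite strand, and all 5 had values that were not whole in 4 to 6 of the 6 libraries. Prmt1, Prmt2 and Prmt9 share none with a gene that had counts, and their values were whole in every library. Prmt3 also shares 79 bases with a gene on its own strand, Gm44822. Among overlaps with opposite-strand genes that had counts, the largest was that of Carm1 with Yipf2, at 1025 of 4852 exon bases, followed by Prmt6 with the antisense gene C130013H08Rik at 984 of 4197, Prmt7 with Smpd3 at 247 of 6125 and Jmjd6 with Mettl23 at 172 of 4698.

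The same held across the table. Of genes with a mean of at least 10 expected counts, 71.0% of the 4386 that share exon bases with an opposite-strand gene alone had a value that was not whole, against 14.8% of the 11719 that share none and 80.1% of the 683 that share bases with a same-strand gene alone. The strand setting of the counting was not stated in the labels or notes, and how far reads of the antisense partners moved the values of these 5 members was not tested.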
